A study of Mus musculus with 4 samples.

Results

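Alternatively activated macrophage genes were followed in mouse pancreatic islets with and without the retinoblastoma gene Rb1. The group holds 8 genes, Retnla, Chil3, Arg1, Mrc1, Cd163, Mgl2, Clec10a and Folr2, out of 22911 genes with a symbol on the array. Its members were chosen from earlier results of the same contrast, in which Retnla stood out, and from common knowledge of this macrophage state, so their differences are given as a description and no test is read from them. All 8 had a probe whose accession mapped to the gene, 11 probes in all.

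Each of 4 arrays held total RNA of islets from 1 mouse. The 2 control mice carried the Pdx1-Cre transgene alone and are titled wild type, and the 2 Rb-deficient mice had the genotype Pdx1-Cre:Rbf/f, that is, the same transgene with floxed Rb alleles. Cre recombinase was thus present in both groups. The Pdx1 promoter drives it in the epithelial lineage of the pancreas, which gives rise to endocrine, acinar and duct cells, whereas macrophages descend from blood-forming cells. The strain and age of the mice are not given in the sources used here.

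Macrophages that meet the cytokines IL-4 or IL-13 take on a state called alternative activation. The cytokines act through the receptor chain Il4ra and the transcription factor Stat6, and the cells then make secreted proteins such as the resistin-like Retnla and the chitinase-like Chil3, the enzyme Arg1, and lectin and scavenger receptors for clearing glycoproteins and debris. Islets hold a resident macrophage population, and the tissue between islets holds others that carry more of these receptors. In bulk islet RNA, fewer cells of a type and less RNA per cell cannot be told apart.

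STAT6 is known to bind the palindrome made of TTC, any 4 bases and GAA, which reads the same on both strands. In RefSeq promoter windows (build GRCm38.p6, 300 bases each), 6 of the 8 genes had an entry. Arg1 and Clec10a had none and were not searched. Of the 6 only Retnla held the motif, once. Of all 32851 windows, 6.95% held it. The 250 bases before the start of Retnla and of Chil3, the members that differed most between the groups, are shown for comparison, at chr16:48842359-48842608 on the plus strand and chr3:106167565-106167814 on the minus strand, with the motif match in capitals. The match begins 145 bases before the start of Retnla. None is in the window of Chil3, which says only that these letters are not there. Of the other genes that IL-4 induces, 4 of the 9 with an entry held the motif, against 8.01% of all genes.
Retnla: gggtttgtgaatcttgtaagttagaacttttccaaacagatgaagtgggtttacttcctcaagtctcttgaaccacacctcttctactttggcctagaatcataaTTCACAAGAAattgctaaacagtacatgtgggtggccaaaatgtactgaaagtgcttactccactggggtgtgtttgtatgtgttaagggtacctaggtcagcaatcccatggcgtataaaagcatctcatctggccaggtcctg
Chil3: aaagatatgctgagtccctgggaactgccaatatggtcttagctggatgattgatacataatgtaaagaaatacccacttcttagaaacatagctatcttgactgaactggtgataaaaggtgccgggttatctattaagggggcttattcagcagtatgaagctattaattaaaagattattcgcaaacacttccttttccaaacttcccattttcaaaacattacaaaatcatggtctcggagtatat

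Values are log2 of the processed spot intensity relative to the 75th percentile of the same array, so that 0 stands for a spot as bright as that percentile. The islet label held, with Ins1, Ins2, Gcg and Sst all well above background at 7.96 to 10.5 on every array. Acinar markers were bright as well. In units of the 75th percentile, the 10 acinar markers summed to 7991 and 6521 in controls and to 5961 and 3540 in Rb-deficient islets. The 6 islet hormone genes summed to less on every array, at 4411 and 4182 against 4107 and 3348. The arrays were not alike in other ways. Control array 1 had 76.5% of probes well above background, against 59.0% to 59.9% on the other arrays. It also had signal of the Y-linked gene Ddx3y and none well above background of Xist, an RNA made from inactive X chromosomes, while the other 3 arrays showed the opposite, so that by these genes the control group was mixed in sex and the Rb-deficient group was not. Rb1 itself was at 0.28 and 0.86 in controls and at -0.48 and -0.90 in Rb-deficient islets, with both below both controls. As the position of this probe relative to the floxed exon is not given in the sources used here, the values do not fully check the labels.

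Retnla encodes a small secreted protein that macrophages release under IL-4 and that fat tissue and some other leukocytes make as well. Its log2 signal was -3.69 and -4.13 in control islets and -0.62 and -1.25 in Rb-deficient islets, well above background on all 4 arrays. In processed intensity units these were 28.0 and 23.4 against 237 and 205, over local background of 31 to 33 units. Both Rb-deficient arrays lay far above both controls, and Rb-deficient array 1 was the higher of the pair. Control islets averaged -3.91 ± 0.32 (SD, n = 2) and Rb-deficient islets -0.93 ± 0.45 (SD, n = 2), which is 2.97 apart (standard error 0.33) or 7.86-fold. Ordered by that difference, Retnla was number 17 of the 26378 genes tested. Among the 23941 whose probe was well above background on all arrays it was number 6. As the same contrast chose Retnla, nothing is read from its rank. With normexp background correction, where an offset of 50 units is added to every signal, the difference was 2.89-fold, and without control array 1, that is among the 3 arrays with Xist signal, it was 3.20 on the log2 scale.

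Chil3, also called Ym1, is a secreted chitinase-like lectin of alternatively activated macrophages that neutrophils make too. Its probe was at -5.94 and -5.78 in control islets, not well above background on either array, and at -3.83 and -2.77 in Rb-deficient islets, well above it on both. Only a bound can therefore be given, and the Rb-deficient signal was at least 3.79-fold higher. The bound compares the Rb-deficient mean with a floor in controls, which is, per array, the dimmest signal still well above background unless the Chil3 spot itself was brighter. Without Rb-deficient array 2 the bound was 2.63-fold. Whether the probe also detects the closely related Chil4 was not tested. With normexp correction the fitted difference was 1.53-fold. The neutrophil genes S100a9, S100a8 and Camp were highest on the array where Chil3 was, while Mpo, Csf3r, Ngp and Cxcr2 were not. S100a9 was at -3.05 and -4.22 in controls and -4.75 and -0.88 in Rb-deficient islets, and S100a8 was at -2.33 on Rb-deficient array 2 and not well above background on array 1. Of 9 neutrophil markers 4 were tested and 1 was above both controls, beside 15.3% of all genes. This was Camp, which encodes an antimicrobial peptide, at -2.93 and -2.87 against -2.64 and -1.97. The summed signal was 54.5 and 42.8 in controls and 46.6 and 24.4 in Rb-deficient islets, nearly all of it from Csf3r. Without Csf3r it was 0.835 and 0.261 in controls and 0.256 and 1.19 in Rb-deficient islets, highest on Rb-deficient array 2. Mpo was highest on control array 1, at -2.62 and -4.89 in controls and -5.26 and -2.83 in Rb-deficient islets, the -5.26 not well above background. Csf3r was lowest on Rb-deficient array 2, at 4.54. Ngp and Cxcr2 were well above background on control array 1 alone, and Ltf on no array. The part of neutrophils in the result was not tested.

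Arg1 encodes arginase, which turns arginine into ornithine and urea and is the enzyme most often read as a sign of alternative activation in the mouse. Its log2 signal was -0.95 and 0.28 in control islets and -0.96 and 0.00 in Rb-deficient islets. The groups overlapped, with array 2 of each group near the percentile and array 1 of each group below it. Their means were -0.15 apart (standard error 0.59). It was above 0 under 3 of 12 alternative settings, between -0.76 and 0.47.

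**Figure D1:**
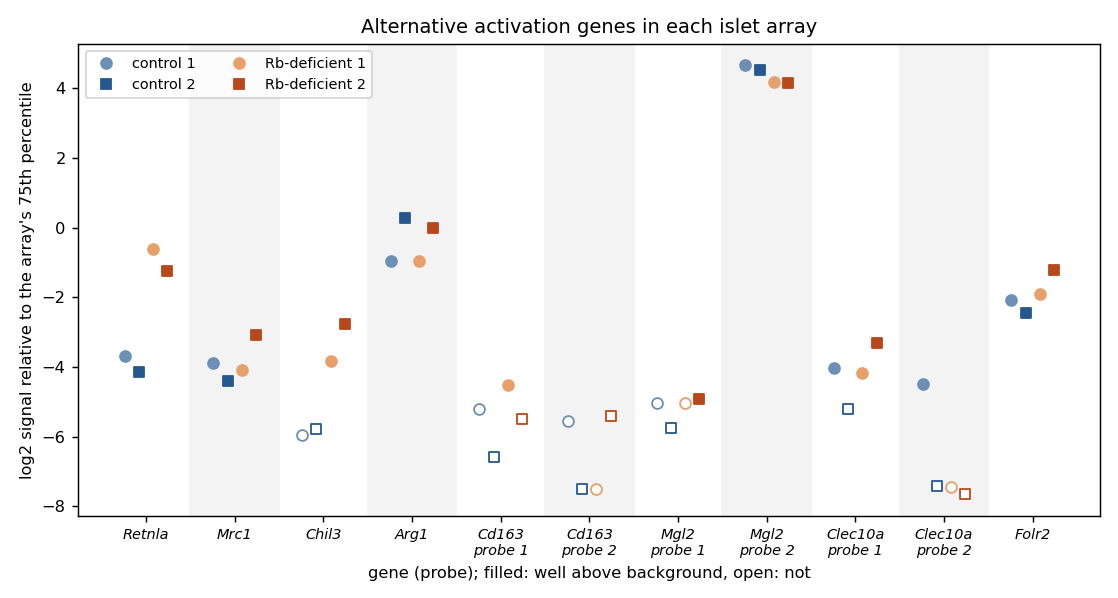
Log2 signal relative to the array's 75th percentile (vertical axis) for each of the 11 probes of the 8 genes (horizontal axis), with 1 point per array. Circles are replicate 1 and squares replicate 2, blue is control and orange Rb-deficient, and open points are not well above background. Retnla and Chil3 are the genes whose Rb-deficient points stand clear above the controls, while Arg1 pairs 1 array of each group.

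The surface receptors differed less. Mrc1, the mannose receptor CD206, was at -3.90 and -4.40 in control islets and at -4.08 and -3.09 in Rb-deficient islets. Rb-deficient array 1 lay between the controls and only array 2 above them. The means were 0.56 apart (standard error 0.43), 0.071 without Rb-deficient array 2 and 0.16 with normexp correction. In processed intensity units Mrc1 was dim, at 24.2 and 19.5 in controls and 21.6 and 57.3 in Rb-deficient islets, over local background of 27 to 29.

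Folr2, the folate receptor beta of resident macrophages, was at -2.07 and -2.45 in control islets and at -1.89 and -1.22 in Rb-deficient islets. Both Rb-deficient arrays were above both controls, array 1 by little. The means were 0.70 apart (standard error 0.33), or 1.63-fold, and 0.36 without Rb-deficient array 2. Its neighbour on the chromosome, the folate receptor alpha gene Folr1, was also above both controls, at 2.98 and 3.19 against 3.58 and 4.42.

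The galactose-type lectins Mgl2 and Clec10a are closely related neighbouring genes, and whether a probe of one also detects the other was not tested. Clec10a was at -4.03 and -5.21 in control islets, the second not well above background, and at -4.16 and -3.30 in Rb-deficient islets. The groups overlapped, with means 0.89 apart (standard error 0.55). A second Clec10a probe was well above background on control array 1 alone, at -4.48.

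The probes of Mgl2 disagreed. One, printed in 10 spots per array, was bright, at 4.65 and 4.53 in control islets and 4.17 and 4.13 in Rb-deficient islets, 1.35-fold lower. The SD over its 10 spots was 0.013 to 0.033 within an array, which covers spot error alone and not the spread between mice. The groups differed by 0.0015 when arrays were scaled to their median. The other probe was well above background only on Rb-deficient array 2, at -4.93. No direction for Mgl2 can be drawn from this pair.

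Cd163 encodes the scavenger receptor for haemoglobin bound to haptoglobin. Of its 2 probes, one was well above background only on Rb-deficient array 1, at -4.50, and the other on no array. It was the only member left out of the fit by the filter on dim probes.

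Across genes, limma called 0 of 26378 at an adjusted p (Benjamini-Hochberg) under 0.05, or 0%, so no member was called. At an unadjusted p under 0.05 there were 1493 genes. Without control array 2 limma called 4091 genes, 17 of them higher, and no member was among them. With arrays scaled to their median it called 480 genes, Retnla and Chil3 among them, in a fit where all genes shared 1 estimate of the spread. Of the 7 members tested, 3 (Retnla, Chil3 and Folr2) had both Rb-deficient arrays above both controls, which 15.3% of all genes did, and 1 had both below, as did 20.7%. The latter is Mgl2 by its bright probe, for which no direction is drawn. As the same contrast chose the members, and the filter on dim probes kept Chil3 only through its Rb-deficient arrays, nothing is read from these shares. The median difference over the 7 was 0.70, where that over all genes was -0.07. Scaling to the array median added 0.44 to every difference.

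**Figure D2:**
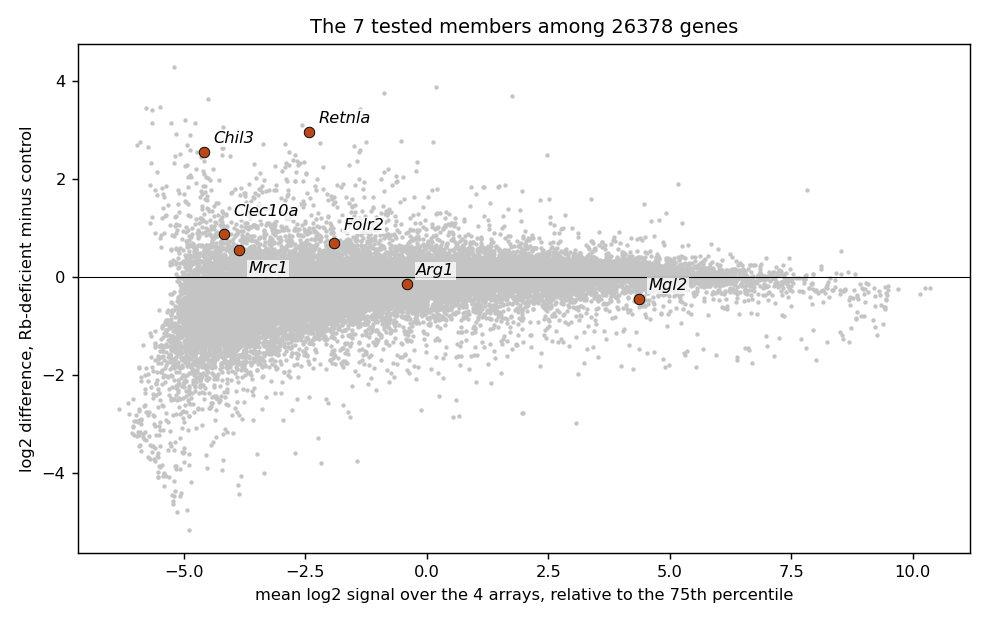
Log2 difference, Rb-deficient minus control (vertical axis), against mean log2 signal over the 4 arrays (horizontal axis) for the 26378 genes tested, in grey, with the 7 tested members in orange. Retnla at 2.97 and Chil3 at 2.56 lie near the upper edge of the cloud, and the other members lie within it. The difference of Chil3 is the fitted value, since its controls were not well above background.

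Of 21 genes of IL-4 and IL-13 signalling, which include feedback inhibitors such as Cish, 16 were tested and 0 were called. By the mean 5 were higher and 11 lower. Of the 16, 1 was above and 4 below both controls, beside 15.3% and 20.7% of all genes. The median was -0.16. That median turned to 0.27 with scaling to the array median and to 0.087 without Rb-deficient array 1. The cytokine gene Il4 was well above background on control array 1 alone, and Il13 was at -4.05 and -4.94 in controls, the second not well above background, and at -4.70 and -4.90 in Rb-deficient islets. Stat6 was at -0.53 on both controls and at -0.72 and -0.09 in Rb-deficient islets. Il4ra was at -1.63 and -1.77 against -1.64 and -0.91, higher on Rb-deficient array 2 only. The decoy receptor gene Il13ra2 was at -2.38 and -3.59 in controls and at -4.28 and -6.23 in Rb-deficient islets, the last not well above background, while its other probe was well above it on no array. Pparg, a lipid-sensing nuclear receptor that supports this state and is made by other cells too, was at 1.40 and 1.42 against 1.21 and 0.46.

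Other genes that IL-4 induces in macrophages were mostly dim. Of 16 listed, 5 were tested, and 1 was above both controls, beside 15.3% of all genes. This was Stab1, a scavenger receptor, at -1.496 and -1.72 in controls and -1.11 and -0.92 in Rb-deficient islets. The interleukin gene Il10, the chemokine gene Ccl22 and Pdcd1lg2, a ligand of the PD-1 receptor, were well above background on no array. Chil4, the closest relative of Chil3 and its neighbour, had signal well above background on control array 1 alone. Among the resistin relatives beside Retnla, Retnlg was likewise well above background on that array alone. Retnlb, on the other side of Retnla, was at -4.07 and -3.40 in controls and at -3.18 and -7.62 in Rb-deficient islets, the last not well above background.

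Genes of resident macrophages around vessels were also followed. Of 12 listed, 10 were tested and 0 were called. Of the 10, 5 were above and 1 below both controls, beside 15.3% and 20.7% of all genes. The median was 0.36. Lyve1, a hyaluronan receptor that lymphatic endothelium also carries, was at -1.13 and -2.39 in control islets and at 0.39 and -0.37 in Rb-deficient islets, with means 1.77 apart (standard error 0.56). Rb-deficient array 1 was the higher of the pair, as for Retnla. The monocyte chemokine gene Ccl8 was at -5.13 and -5.93 in controls, not well above background, and at -3.64 and -2.14 in Rb-deficient islets. This is at least 4.91-fold higher, or 2.92-fold without Rb-deficient array 2. The filter on dim probes kept Ccl8 only through its Rb-deficient arrays, which tilts the count of 5 upward. Igf1, a growth factor gene that many cell types express, went the other way, at 1.24 and 1.06 against 0.03 and -0.85.

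Classical activation, the state that bacterial products and interferon gamma induce, was followed through 19 genes. Of the 19 listed, 14 were tested and 0 were called. Of the 14, 5 were above and 1 below both controls, beside 15.3% and 20.7% of all genes. The median was 0.26. The chemokine gene Ccl5 was at -2.75 and -2.05 in controls and at -1.41 and 0.65 in Rb-deficient islets. Fcgr1, a high-affinity antibody receptor, was not well above background in controls and was at -4.79 and -2.52 in Rb-deficient islets. The measured means were 2.76-fold apart, which rests on Rb-deficient array 2, since array 1 stood 0.33 above the control mean on the log2 scale. The costimulatory gene Cd86 was at -5.52 and -4.85, the first not well above background, against -4.16 and -3.86, while another of its probes was well above background on control array 1 alone. Each of these 3 genes was higher on Rb-deficient array 2 than on array 1. The filter on dim probes kept Fcgr1 and Cd86 only through their Rb-deficient arrays, which tilts the count of 5 upward. It kept the 1 gene below both controls only through its control arrays.

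General macrophage markers were higher by the mean in 15 of the 17 tested, out of 18 listed. Both Rb-deficient arrays were above both controls for 10 and below them for 0, beside 15.3% and 20.7% of all genes. The median was 0.84. Against the control mean that median stood at 0.36 on Rb-deficient array 1 and 1.31 on array 2, where Retnla stood at 3.29 and 2.66 and Chil3 at 2.03 and 3.09. Their summed signal, in units of the 75th percentile, was 52.7 and 53.2 in controls and 60.5 and 63.7 in Rb-deficient islets. A single bright probe, of the integrin gene Itgam, made up 35.4 and 33.0 of it in controls and 37.5 and 21.6 in Rb-deficient islets. The other 17 markers summed to 17.3 and 20.2 in controls and to 23.0 and 42.1 in Rb-deficient islets, with Rb-deficient array 2 far above the rest. Leaving out each list's brightest gene was chosen after the values were seen. Lyz2, which encodes lysozyme, was at -2.57 and -2.55 against -2.01 and -0.25, and Adgre1, which encodes a macrophage surface receptor, was at -2.18 and -1.83 against -1.29 and -0.04. Whether the difference in Retnla exceeded that of macrophage markers was not tested.

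**Figure D3:**
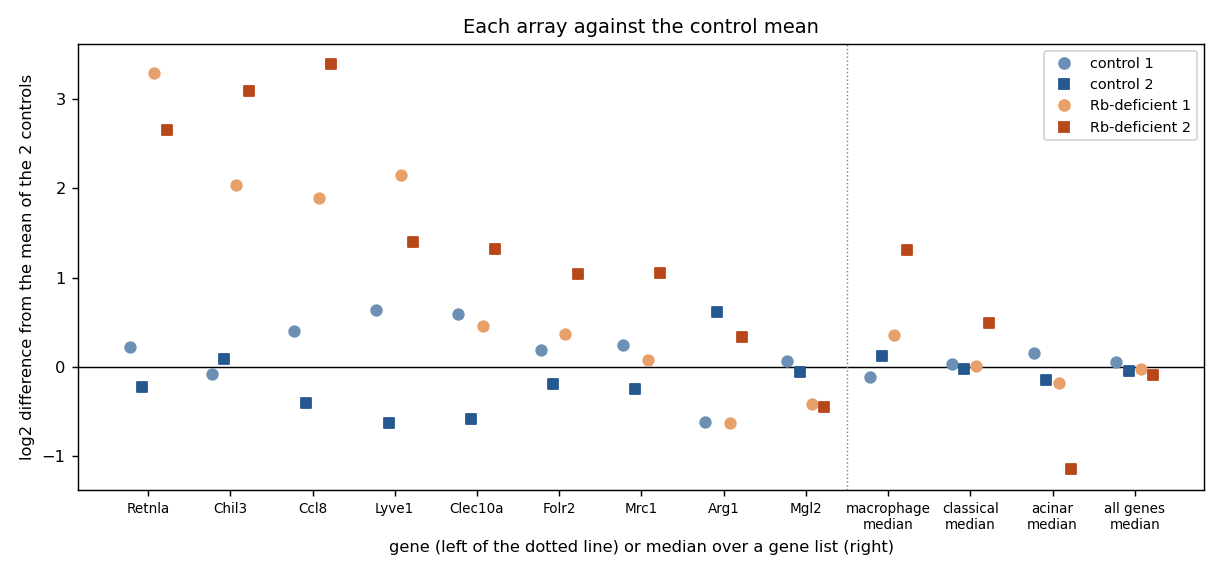
Log2 difference of each array from the mean of the 2 controls (vertical axis) for 9 genes and, right of the dotted line, for the median over gene lists (macrophage markers, classical activation, acinar cells, all genes tested). Retnla is at 3.29 and 2.66 on the Rb-deficient arrays, with array 1 ahead, while the macrophage median is at 0.36 and 1.31, with array 2 ahead. Ccl8 and Chil3 are drawn at measured values although their controls were not well above background.

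Markers of other cells that can make these proteins were looked at in the same arrays. The fat cell genes Adipoq, Plin1 and Retn were well above background on control array 1 alone, the array with the most probes above background, and Fabp4, which macrophages and capillaries share, was at 0.28 and -0.21 against 0.17 and 1.99. Of the 8 fat cell markers 4 were tested, 0 above and 2 below both controls, beside 15.3% and 20.7% of all genes. The summed signals of the 8 were 2.56 and 2.58 in controls and 2.48 and 4.83 in Rb-deficient islets. Without Fabp4 the sums were 1.34 and 1.71 in controls and 1.35 and 0.857 in Rb-deficient islets. Cfd, a complement factor of fat cells, was at -4.64 and -4.72 in controls, and on neither Rb-deficient array was it well above background. The part of fat cells in the Retnla values was not tested. Among eosinophil markers Epx was well above background on no array, and Prg2 and Siglecf on control array 1 alone. Of 8 eosinophil markers 3 were tested and none had groups apart, beside 15.3% of all genes above and 20.7% below both controls. The summed signals of the 8 were 3.06 and 2.12 against 2.58 and 2.45, most of it from Il5ra. Without Il5ra the sums were 0.528 and 0.158 against 0.172 and 0.161. Ear2, an eosinophil ribonuclease gene, was at -6.84 and -4.74 in controls, the first not well above background, and at -4.79 and -4.27 in Rb-deficient islets. Of 8 endothelial markers all were tested and 3 were above both controls, beside 15.3% of all genes, with a median of 0.19. Acinar markers were lower in all 10 cases by the mean, as were 15326 of all 26378 genes. Their median was -0.72, at -0.19 and -1.15 on the Rb-deficient arrays. Of the 10, 5 were below both controls and 5 overlapped, beside 20.7% of all genes below. The part of acinar tissue in the member differences was not tested.

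The other lists had 0 genes called as well. Among 9 dendritic cell markers 5 were tested, with a median of -0.33, among 9 of mast cells and basophils 2, with -0.03, and among 11 of T cells and type 2 innate lymphoid cells 5, with -0.04. The lymphoid genes Gata3, Il1rl1 and Il5, which mark sources of IL-5 and IL-13, were well above background on no array. Areg, a growth factor gene of that list which epithelia also express, was at -1.76 and -3.04 in controls and at -4.97 and -6.18 in Rb-deficient islets, the last not well above background. Cd3d, a T cell receptor subunit gene, was at -1.46 and -1.79 in controls and at -2.65 and -2.44 in Rb-deficient islets by its brighter probe. Its other probe went the other way, well above background on Rb-deficient array 2 alone, at -3.82. The 1 mesothelial marker tested of 6 stood at 0.14, and the 6 islet hormone genes had a median of -0.22.

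By the distance between profiles over the 4 arrays, each centred on its own mean, the 5 named genes most like Retnla among 15822 were Col6a3, Nptx2, Defb44-ps, Fam199x and Meltf, at distances of 0.25 to 1.16 log2 units. Defb44-ps was not well above background on either control array, so its distance rests on values with no order. Col6a3, a collagen VI chain made by fibroblasts, came closest, at -2.32 and -2.96 in controls and 0.40 and -0.15 in Rb-deficient islets. Of 7 fibroblast markers 6 were tested and none had groups apart, beside 15.3% of all genes above and 20.7% below both controls. Their median was -0.09. Nptx2, a neuronal pentraxin gene, was at -3.78 and -4.77 against -0.97 and -2.14. Of the other members Chil3 was nearest to Retnla, at 1.33, with its controls likewise not well above background, and Arg1 farthest, at 3.53.

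**Figure D4:**
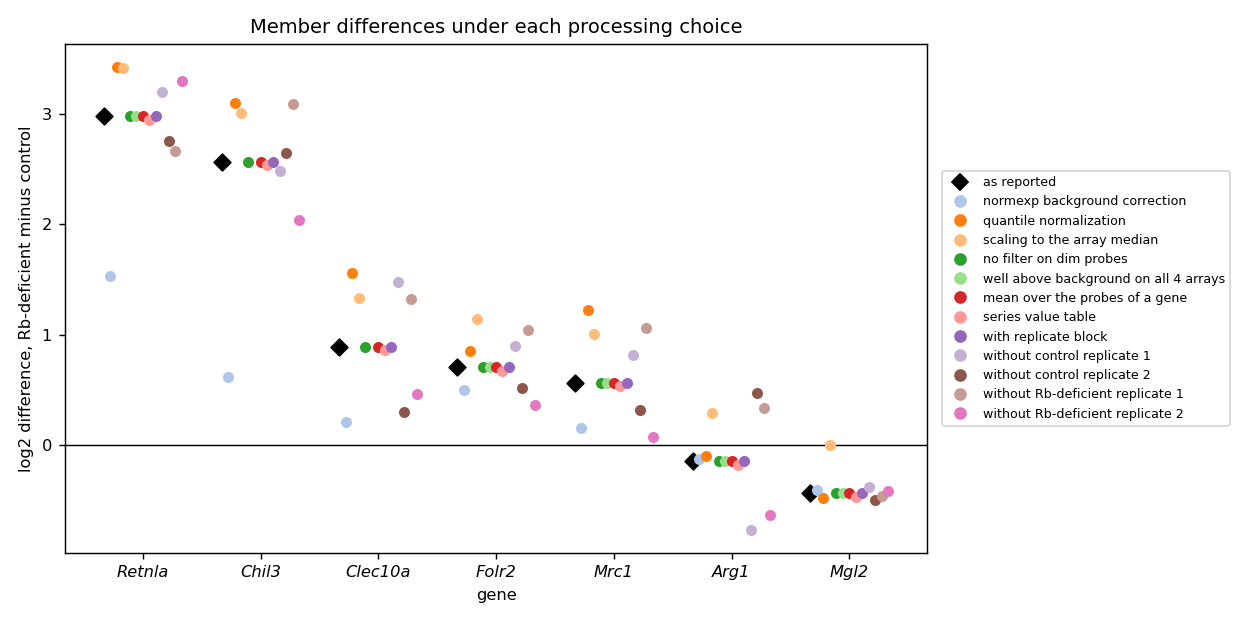
Log2 difference, Rb-deficient minus control (vertical axis), of the 7 tested members (horizontal axis) as reported (black diamonds) and under each alternative setting (coloured points). Retnla stays between 1.53 and 3.42 and Chil3 between 0.61 and 3.096, Arg1 falls on both sides of 0, and Mgl2 reaches 0.0015 when arrays are scaled to their median.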

How the data were processed

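The scanner files deposited by the authors hold intensity values per spot of a 1-colour Agilent array. The processed intensity was background-subtracted and detrended in Feature Extraction 12.0.3.1 from Agilent, per the file headers, with no scaling between arrays, and the probes were designed on mm9. A deposited table of the series holds the same intensity times 1 constant per array (2.44, 2.15, 2.49 and 1.74, column medians 220.06, 180.7, 188.3 and 157.33). The values are linear and not centred, and the statistic behind the constants is unknown.

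Control and outlier spots were left out. Log2 values were scaled to the 75th percentile of non-control spots, and spots of a probe were averaged. Accessions without versions named 32994 of 56605 probes through a RefSeq table of GRCm38.p6. Probes well above background on both arrays of a group were kept, and the brightest probe stood for a gene. A gene that met this in 1 group only, such as Chil3, Ccl8, Fcgr1, Cd86, Il13ra2 and Cfd, passed through that group. This tilts the counts of genes above or below both controls. The contrast of Rb-deficient minus control was fitted in limma (version 3.58.1, under R 4.3.3; two-sided, no covariates) across all genes with Benjamini-Hochberg adjustment, and the fit was tested on simulated data. No permutation test of 2 against 2 can go below 0.333. Per the series' design text the arrays hold separate mice, and 2 arrays a group limit the precision. All arrays lay on 1 slide.

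Members, gene lists and the naming rule were chosen with earlier results of these data known. The rule names all members and, per list, called genes or up to 3 with the largest difference among those whose groups do not overlap, defining genes not above background, hormone genes and the 5 profiles nearest Retnla. Genes outside it were chosen after their values were seen. These were S100a8, S100a9, Mpo, Ngp, Cxcr2, Csf3r, Stat6, Il4ra, Il13, Chil4, Retnlb, Retnlg, Fabp4, Ear2, Itgam and Il5ra. Cish and Il1b, named further on, were chosen likewise. Normexp used the median pixel signal of spot and background with an offset of 50. The other alternatives were quantile normalization, median scaling, other filters, averaged probes, the deposited table, the replicate number as a block, 1 test per probe and leaving out each array.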

Additional observations from a re-analysis of the deposited data

How the results depend on the processing

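Retnla was higher in Rb-deficient islets under all 12 alternatives run, at 1.53 on the log2 scale with normexp background correction, 3.42 with quantile normalization and 3.41 with scaling to the array median, and at 2.66 to 3.29 with 1 array left out. The median over the tested members was 0.21, 1.22 and 1.14 under the same 3 settings, and 0.41 to 1.06 with 1 array left out. Limma called 480 genes with scaling to the array median, Retnla and Chil3 among them, where its prior gave all genes 1 shared spread, and 0 to 4091 genes with 1 array left out. In those fits the lone array is assumed to vary like the other group. The 4091 arose without control array 2, where control array 1 alone set the filter and 34649 genes were tested. With the replicate number as a block the Retnla difference was 2.97 and 0 genes were called, 3160 at an unadjusted p under 0.05. The difference of control array 1 minus control array 2 correlated at 0.295 over genes with the same difference of the Rb-deficient arrays. With 2 arrays a group this cannot settle whether same-numbered arrays were paired. A fit with slide as a block was not run, since all arrays shared 1 slide. Chil3 and Clec10a dropped out when signal on all 4 arrays was required. The other IL-4-induced list, with a median of 0.11, and the list of member relatives, with a median of -0.61, changed sign under 3 and 2 of 12 alternatives. The macrophage, perivascular and classical lists changed sign under 0. Their lowest medians were 0.36, 0.025 and 0.0054, so the last 2 came close to no difference. Signal over background limits Chil3, Cd163, Mrc1, Clec10a, the second Mgl2 probe and the control values of Retnla.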

Other observations

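Arg1 was not alone in setting 1 array of each group apart from the other. Cish, a cytokine-induced inhibitor of signalling that STAT factors switch on, was at 1.54 and 3.46 in control islets and at 0.62 and 2.26 in Rb-deficient islets. Il1b, which encodes the inflammatory cytokine interleukin 1 beta, was at -3.35 and -2.15 against -3.23 and -1.73 by its brighter probe. The other Il1b probe, at -3.48 and -4.21 against -4.92 and -3.27, did not share the order. By the probes used, control array 2 and Rb-deficient array 2 were the higher arrays, as they were for Arg1 at 0.28 and 0.00.

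Of the list of members' relatives, Folr1 alone of the 4 tested had groups apart, with Rb-deficient islets higher. Beside this, 15.3% of all genes were above and 20.7% below both controls. Retn, Arg2, Mrc2, Cd163l1 and Clec4f were well above background on control array 1 alone.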
